A study of Mus musculus with 8 samples.

Results

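Mitochondria carry their own ribosome, which makes the few proteins encoded by the mitochondrial genome, and they import every other protein from the cytosol. The mitochondrial ribosome has a large and a small subunit, whose proteins are encoded in the nucleus, most of them by Mrpl and Mrps genes. Imported proteins enter through the translocase of the outer membrane (Tomm genes) and are passed by chaperones and translocases of the inner membrane (Timm genes) to their place. Neurons depend on this machinery because synaptic transmission draws heavily on oxidative phosphorylation.

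These genes were examined in RNA from the medial prefrontal cortex (mPFC) of naive adult male mice on a C57Bl/6J background, 4 per genotype. The mice called CaKO were CamK2A-Cre;Gpr158flox/flox, in which Cre driven by the CamK2A promoter removes the orphan receptor gene Gpr158 from forebrain excitatory neurons. Their littermate controls were Gpr158flox/flox without Cre, so both groups carried the floxed alleles, and cells without Cre keep the gene in either group. The series asks which transcripts differ in the mPFC when excitatory neurons lack GPR158. The values analysed were normalised read counts of the 4 CaKO libraries, each 1 mouse, and the authors' fold changes and p-values for 2372 genes, each of which has an unadjusted p under 0.05. Values of the single control libraries were not analysed here. Gpr158 has 0 rows in the table: its p was at least 0.05, or it had no p or no matched row. Its loss therefore does not show in these values and was not checked further.

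The members were the rows that matched a protein-coding gene of GENCODE M21 (GRCm38) by chromosome, start, end and strand and had a symbol starting with Mrpl, Mrps, Timm or Tomm. There were 16 of them among the 2372 rows, from 104 annotated genes with such symbols. The other 88 have no value here: for each, p was at least 0.05, or the gene had no p or no row that matched it exactly. The 16 are therefore those that passed this threshold in the same comparison, and medians over them do not describe the whole machinery. They comprised 5 Mrpl, 6 Mrps, 4 Timm genes and 1 Tomm gene, and 0 of them were at 0 reads in any CaKO library.

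Genes of the mitochondrial ribosome and import machinery passed the authors' test at a share not far from that of all genes, and they did not move one way. By the authors' deposited table, Mrpl42, Mrpl39, Mrps21 and Timm13 fell in CaKO and Timm22 rose, at an adjusted p below 0.05 (Benjamini-Hochberg over 12938 genes). These 5 are 4.81% of the 104 annotated genes, beside 3.24% of the 12938 genes of the adjustment (1.27% rose and 1.97% fell). At an unadjusted p below 0.05, 16 of 104 were listed (15.4%), beside 15.8% of the 12938 genes. Of these 16, 7 were higher and 9 lower in CaKO, against backgrounds of 7.14% and 8.68% of all genes. The 104 include genes that may not have entered the adjustment, which would make their shares too low beside the background. The counts carry no test and show nothing particular about these genes. Below, "rose" and "fell" refer to the adjusted p, and "higher" and "lower" to the unadjusted one.

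The promoters of 4 of the 5 genes that rose or fell and of Tomm20, the most abundant member, show what these genes hold upstream of their starts. The sequences are the 250 bases before the RefSeq start (GRCm38.p6), read 5′ to 3′ along the gene. Capitals mark matches on either strand to NRF1 (GCGCNTGCG), a motif of a regulator of mitochondrial genes, or to a ZNF143-type motif (ACANNTCCC). The promoter of Mrpl39 is not shown, because its RefSeq window lies inside an annotated exon.
Timm13, chr10:80900970-80901219, minus strand: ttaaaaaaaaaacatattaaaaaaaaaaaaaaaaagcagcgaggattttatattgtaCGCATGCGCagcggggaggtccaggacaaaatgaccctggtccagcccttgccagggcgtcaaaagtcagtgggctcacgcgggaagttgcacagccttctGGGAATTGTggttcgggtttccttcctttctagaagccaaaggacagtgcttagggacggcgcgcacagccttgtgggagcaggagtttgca
Mrpl42, chr10:95501950-95502199, minus strand: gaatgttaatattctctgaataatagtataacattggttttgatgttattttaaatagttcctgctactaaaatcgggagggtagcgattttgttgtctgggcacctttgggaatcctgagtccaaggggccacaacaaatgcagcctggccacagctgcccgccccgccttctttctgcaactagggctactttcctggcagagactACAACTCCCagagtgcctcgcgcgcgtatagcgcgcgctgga
Mrps21, chr3:95871515-95871764, minus strand: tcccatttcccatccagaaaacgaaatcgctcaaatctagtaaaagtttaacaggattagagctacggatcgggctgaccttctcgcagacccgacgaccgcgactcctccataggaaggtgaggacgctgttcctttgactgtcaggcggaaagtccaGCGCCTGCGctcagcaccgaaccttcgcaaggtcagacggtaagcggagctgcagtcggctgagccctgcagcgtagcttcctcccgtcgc
Timm22, chr11:76406675-76406924, plus strand: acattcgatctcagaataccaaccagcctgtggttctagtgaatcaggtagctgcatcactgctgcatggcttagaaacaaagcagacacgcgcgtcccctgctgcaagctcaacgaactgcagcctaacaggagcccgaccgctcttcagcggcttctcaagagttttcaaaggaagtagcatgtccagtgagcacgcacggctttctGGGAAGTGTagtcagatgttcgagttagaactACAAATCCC
Tomm20, chr8:126945922-126946171, minus strand: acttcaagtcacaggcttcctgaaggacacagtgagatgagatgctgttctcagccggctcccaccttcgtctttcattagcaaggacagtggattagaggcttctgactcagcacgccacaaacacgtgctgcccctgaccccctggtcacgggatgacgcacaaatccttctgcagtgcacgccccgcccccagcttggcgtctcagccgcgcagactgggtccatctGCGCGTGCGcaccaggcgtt

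Motif matches were counted in windows of 300 bases, from 250 before to 50 after the start, found for 14 of the 16 members and 92 of the 104 annotated genes. The NRF1 motif occurred in 5 of the 14 windows (Timm13, Mrpl39, Mrps21, Timm29 and Tomm20), in 25% of the 92 and in 6.31% of all 32851 windows. An ETS motif (CCGGAAG) occurred in 7 of the 14, in 37% of the 92 and in 8.86% of all. All 250 bases before the start lie in annotated exons of the same gene for Mrpl39 (NRF1 match) and Timm10b (ETS match). The YY1 motif (AAGATGGCG) was found in 1 of the 14, that of Mrpl42, in 9.78% of the 92 and in 1.4% of all. Both strands were searched, and no match to one motif overlapped a match to another. The ZNF143-type motif was added after the letters of these promoters had been seen, and it and the NRF1 motif were searched in a longer spelling before. It occurred in 3 of the 14 windows, those of Timm13, Mrpl42 and Timm22, and in 8.7% of the 92 and 6.28% of all. Because it was picked from these promoters, its count in them cannot be judged against those shares. Counts for the longer spellings of this motif and of NRF1 are not given here. The 3 genes with the ZNF143-type motif include 2 that fell and 1 that rose. These matches are letters in a window and were not tested as binding sites.

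Among the large-subunit proteins, Mrpl42 and Mrpl39 fell. Mrpl42, a protein found in mitochondrial but not bacterial ribosomes (chromosome 10: 95480805 to 95501940), had 362, 359, 201 and 379 normalised counts in CaKO replicates 1 to 4. Replicates 1, 2 and 4 lay close together and replicate 3 lay far below them. Its mean was 325 ± 83.4 (SD, n = 4), and the authors' deposited table gives 59.6% of the control level (log2 change -0.75, adjusted p = 0.00618). Mrpl39, likewise specific to mitochondria (chromosome 16: 84717576 to 84735742), had 197, 194, 167 and 213 normalised counts in CaKO. Its libraries spanned 0.35 on the log2 scale, less than its log2 fold change of -0.50 per the authors' deposited table (70.5% of control, adjusted p = 0.0172). For Mrpl42 the CaKO libraries spanned 0.92, more than the fold change.

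The other large-subunit proteins did not pass the adjustment. Mrpl15, which has a bacterial counterpart (chromosome 1: 4773206 to 4785739), had 291, 275, 246 and 294 normalised counts in CaKO. The authors' deposited table gives it a log2 fold change of -0.28 (adjusted p = 0.217). Mrpl21, also of bacterial descent (chromosome 19: 3282901 to 3292837), had 155, 180, 165 and 172, with a log2 fold change of -0.29 per the authors' deposited table (adjusted p = 0.284). Mrpl52, a mitochondria-specific protein (chromosome 14: 54426909 to 54429756), was the single Mrpl gene on the higher side. It had 173, 194, 205 and 230 normalised counts, and its log2 fold change per the authors' deposited table was 0.31 (adjusted p = 0.302). Thus 1 of the 49 annotated Mrpl genes was listed as higher and 4 as lower.

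In the small subunit, Mrps21 fell and 5 other genes were listed without passing. Mrps21, a protein with a bacterial counterpart (chromosome 3: 95862634 to 95871519), had 142, 150, 119 and 208 normalised counts in CaKO. Replicate 4 was the highest and replicate 3 the lowest, and this span of 0.80 on the log2 scale exceeded the fold change. Its mean was 155 ± 38.0 (SD, n = 4), which the authors' deposited table puts at 63.0% of control (log2 change -0.67, adjusted p = 0.0339).

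Mrps34, Mrps33 and Mrps23, all specific to the mitochondrial ribosome, were lower. Mrps34, needed for a stable small subunit (chromosome 17: 24895116 to 24897502), had 136, 144, 95.4 and 200 normalised counts. Its log2 fold change per the authors' deposited table was -0.61 (adjusted p = 0.0617). Its exons are shared with Nme3 on the same strand (37% of the exon sequence) and with Mapk8ip3 on the opposite strand (63.4%). Reads from the shared parts may be ambiguous, and how they were counted is not known here. Mrps33 (chromosome 6: 39801804 to 39810988) had 238, 285, 249 and 311 normalised counts, with a log2 fold change of -0.44 per the authors' deposited table (adjusted p = 0.0735). A processed pseudogene, Gm5776, is 99.7% identical to it over 321 bases and could share its reads. Mrps23 (chromosome 11: 88204388 to 88211507) had 255, 294, 313 and 314, with a log2 fold change of -0.29 per the authors' deposited table (adjusted p = 0.234).

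On the higher side stood Mrps17 and Mrps14, both with bacterial counterparts. Mrps17 (chromosome 5: 129715497 to 129722556) had 952, 1093, 1165 and 890 normalised counts in CaKO. Mrps14 (chromosome 1: 160195215 to 160202170) had 714, 689, 794 and 638. Replicate 3 was the highest and replicate 4 the lowest for both. Their log2 fold changes per the authors' deposited table were 0.25 and 0.25 (adjusted p = 0.177 and 0.205), smaller than the span of their CaKO libraries (0.39 and 0.32). In all, 2 of 29 annotated Mrps genes were listed as higher and 4 as lower.

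Of the 16 annotated Timm genes, 3 were listed as higher and 1 as lower, and 1 rose and 1 fell. Timm22, the channel-forming subunit of the translocase that inserts proteins such as the ATP/ADP carrier (chromosome 11: 76406952 to 76416292), had 420.1, 348, 423 and 386 normalised counts in CaKO. Its mean was 394 ± 35.4 (SD, n = 4), and it rose to 134% of control per the authors' deposited table (log2 change 0.42, adjusted p = 0.0182). The libraries spanned 0.28 on the log2 scale, less than this fold change.

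Timm29 and Timm10b, known from human cells as further subunits of that translocase, were higher without passing. Timm29 (chromosome 9: 21592722 to 21595970) had 1008, 1235, 1157 and 1165 normalised counts, and its log2 fold change per the authors' deposited table was 0.24 (adjusted p = 0.181). Timm10b (chromosome 7: 105640056 to 105643637) had 145, 160.3, 177 and 137, with a log2 fold change of 0.38 per the authors' deposited table (adjusted p = 0.165). Another annotated gene on its strand, Gm45799, covers 10.5% of its exon sequence. The small intermembrane-space chaperones Timm9 and Timm10, which hand carriers to the same translocase, have no value here.

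Timm13, a chaperone of the intermembrane space that guides inner-membrane proteins such as Timm23, was the one Timm gene that fell. It had 311, 308, 206 and 325 normalised counts in CaKO (chromosome 10: 80899450 to 80900969). As for Mrpl42, 3 libraries agreed closely and replicate 3 lay below them. The mean was 287 ± 54.9 (SD, n = 4), which is 64.6% of control per the authors' deposited table (log2 change -0.63, adjusted p = 0.0044).

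Tomm20, the outer-membrane receptor for targeting sequences (chromosome 8: 126930667 to 126945844), was the single Tomm gene listed of 10. It had 5900, 5977, 7126 and 5765 normalised counts in CaKO, with replicate 3 far above the others. Its log2 fold change per the authors' deposited table was 0.20 (adjusted p = 0.227), less than the span of the libraries (0.31). A processed pseudogene, Gm14494, is 99.5% identical to Tomm20 over 435 bases.

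**Figure D1:**
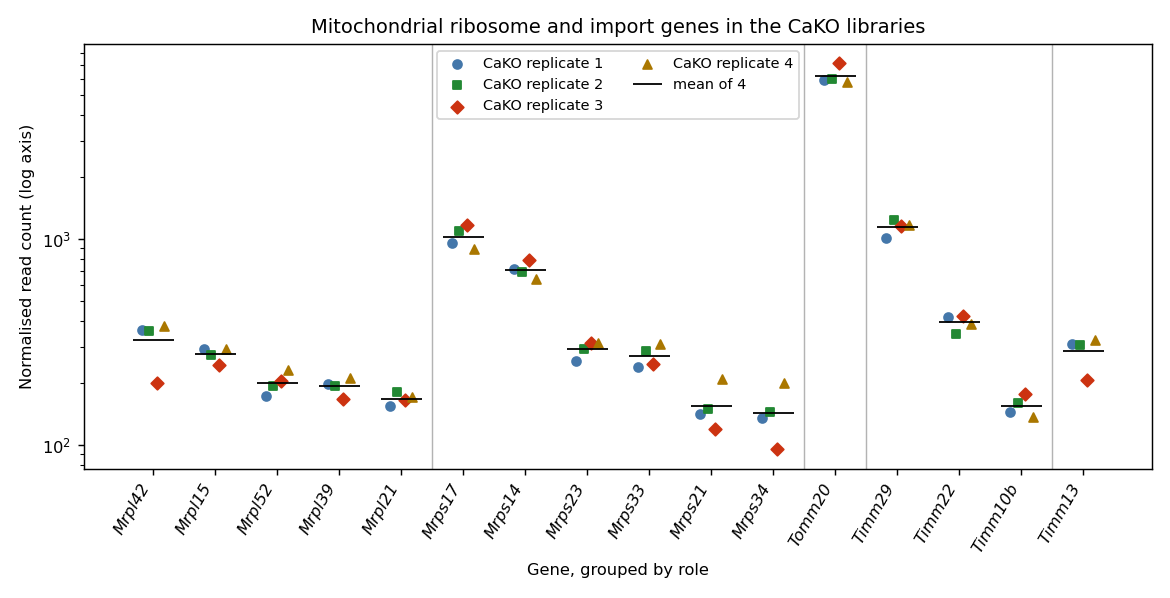
Normalised read count (log axis) of each of the 16 genes in the 4 CaKO libraries, grouped by role: large subunit, small subunit, outer membrane, inner membrane translocase, intermembrane space. Points are libraries and the line is their mean; replicate 3 (red diamonds) is the lowest point for Mrpl42, Mrpl15, Mrpl39, Mrps21, Mrps34 and Timm13 and the highest for Mrps17, Mrps14, Tomm20, Timm22 and Timm10b.

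**Figure D2:**
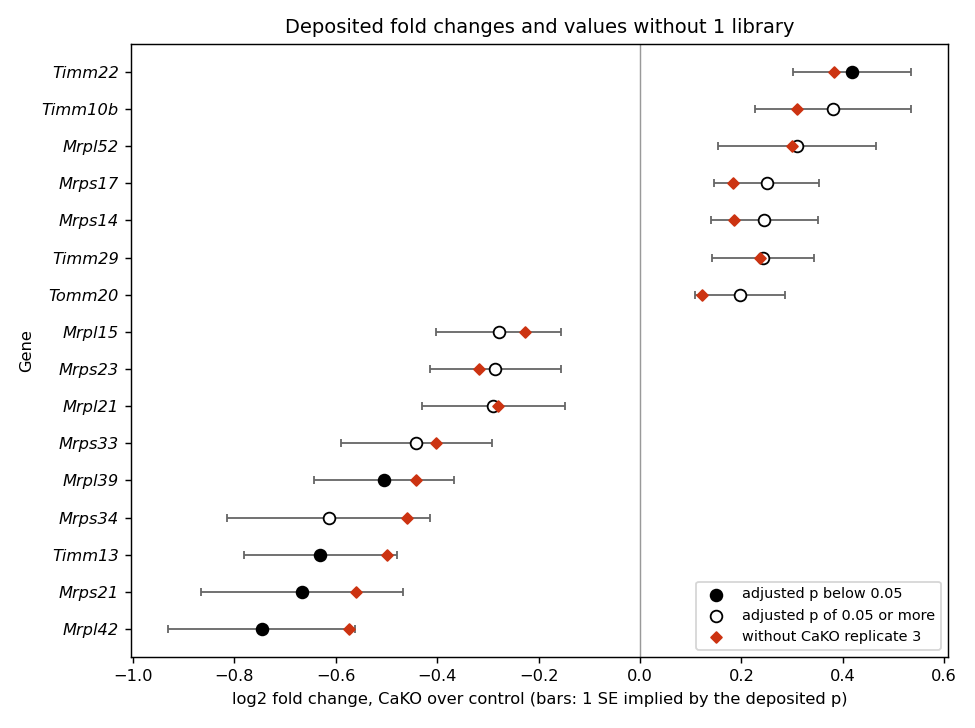
Log2 fold change, CaKO over control, per the authors' deposited table (circles, filled where the adjusted p is below 0.05), with bars of 1 standard error implied by the deposited p. Red diamonds give the value recomputed without CaKO replicate 3, which lies nearer 0 than the deposited one for 15 of the 16 genes, the exception being Mrps23.

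By an untested approximation, the authors' calls for these genes were lost most often without 1 library, replicate 3. When each CaKO library was left out by an approximation that holds the control level fixed, 3, 4, 0 and 5 of the 5 calls were kept without replicates 1, 2, 3 and 4. The lower precision of 3 libraries alone would have kept 4. The approximation kept the spread implied by all 4 libraries. A refit could find a smaller spread without replicate 3, which lay far from the others for Mrpl42 and Timm13. Whether a refit would lose these calls was not tested. Without replicate 3 the log2 fold changes became -0.57 for Mrpl42, -0.50 for Timm13, -0.44 for Mrpl39, -0.56 for Mrps21 and 0.38 for Timm22, each in the same direction. Without replicate 1 the calls of Timm22 (0.39) and Mrps21 (-0.63) ended too, and that of Mrps21 also without replicate 2 (-0.65). Those 5 genes thus kept their direction, but none kept its call with each library left out. Of the called genes in the further lists below, Chchd4, Minos1, Nrgn and Aldoc also lost their calls without replicate 3. Pam16, Mobp, Mbp, Cnp, Mag, Gpr17, Ly6c1 and Hba-a1 kept theirs. The share kept over all 419 called genes is not given here, so the losses are not shown to be particular to the members.

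Replicate 3 stood at the far end in the direction of the fold change more often than the other libraries. Of the 9 lower members, 6 had their lowest value in replicate 3 and 8 their highest in replicate 4. Of the 7 higher members, 5 had their highest value in replicate 3 and 4 their lowest in replicate 4. The median log2 deviation of replicate 3 from the CaKO mean was -0.21 for the lower members and 0.16 for the higher ones. The same held across the table: replicate 3 was lowest in 60% of the 1123 lower genes and highest in 49.2% of the 924 higher genes, with median deviations of -0.17 and 0.09. Replicate 4 was highest in 88.9% of the lower members, against 43% of all lower genes. A gene's CaKO mean includes these libraries, so a library's place and the fold change are not independent.

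**Figure D3:**
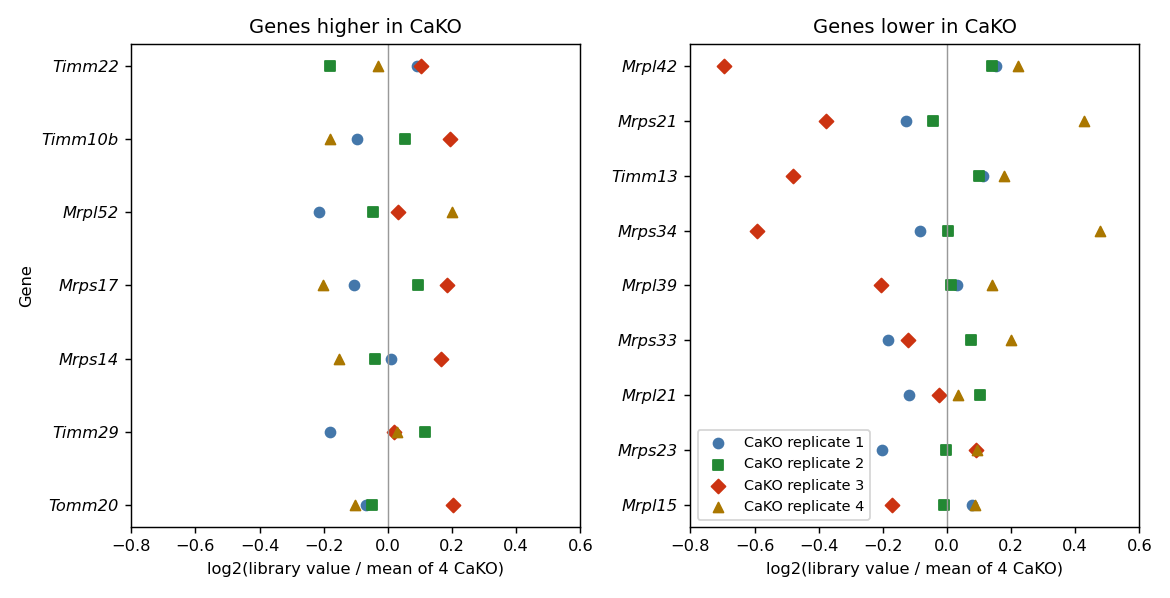
Log2 of each CaKO library over the mean of the 4, for the 7 genes higher in CaKO (left) and the 9 lower in CaKO (right), ordered by the size of their fold change. Replicate 3 (red diamonds) lies to the right of 0 for all 7 higher genes and to the left of 0 for 8 of the 9 lower ones, all but Mrps23.

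The 16 members had between 96 reads (Mrps34, replicate 3) and 7168 reads (Tomm20, replicate 3) per library. The spread between CaKO mice exceeded that from counting alone for 15 of the 16. The coefficient of variation of Mrpl42 was 25.6%, against 5.58% from counting, and that of Mrps34 was 29.96% against 8.4%. For Mrpl21, the exception, it was 6.44% against 7.76%. The deposited fold change exceeded the whole log2 range of the CaKO libraries for 6 of the 16 members, namely Mrpl39, Timm22, Mrps33, Timm10b, Mrpl15 and Mrpl21, and so for 2 of the 5 that passed.

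Per kilobase of exon, the members differed widely in level within CaKO. Tomm20 stood first at 1262 ± 128 normalised counts per kb (SD, n = 4), and its lowest library (1175) lay above every other gene. Timm29 came next at 360.1 ± 30.2 per kb, again clear of its neighbour, as its lowest library (318) exceeded the highest of Mrps14 (244). From Mrps14 (218 ± 20.02) through Mrps21, Timm13, Mrps23, Mrpl52 and Mrps33 to Mrps17 (158 ± 19.5), each gene overlapped its neighbours in the order. Timm22 followed at 124 ± 11.1 per kb without overlap on either side. Mrpl42, Mrpl21, Mrpl39, Mrps34 and Timm10b, from 88.3 ± 22.6 down to 43.2 ± 4.99 per kb, overlapped in turn, and Mrpl15 was last at 32.6 ± 2.62. The length is that of all annotated exons together, so a gene with long alternative exons, such as Mrpl15 with 8487 bp, has its level per kb understated. The place of Mrps34 is uncertain too, since reads from the exons it shares with Nme3 and Mapk8ip3 may be ambiguous.

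Direction among the members went with exon length, which itself went with gene family and level. Of the 8 members with at least 3000 bp of exon, 6 were higher (Mrps17, Mrps14, Timm22, Timm29, Timm10b and Tomm20) and 2 lower (Mrpl15 and Mrpl42). Of the 8 shorter ones, 1 was higher (Mrpl52) and 7 were lower. Median exon lengths were 3258 bp for the higher members and 2011 bp for the lower ones. Over all 2047 listed genes of the adjustment the split was smaller: 605 of 1289 long genes and 319 of 758 shorter ones were higher, with median lengths of 3880 and 3841 bp for higher and lower genes. Median GC content of the longest transcript was 48.2% in the higher and 52.1% in the lower members, beside 49.1% and 52.2% over all listed genes. The long import genes Timm22, Timm29, Timm10b and Tomm20 were all higher. The long ribosome genes divided, with Mrps17 and Mrps14 higher and Mrpl15 and Mrpl42 lower. The median CaKO mean was 551 normalised counts in the long members and 197 in the shorter ones, beside 613 and 328 over listed genes. Length, family and level cannot be told apart here. The length boundary was chosen after the values were seen, and the part of length in the fold changes was not tested.

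**Figure D4:**
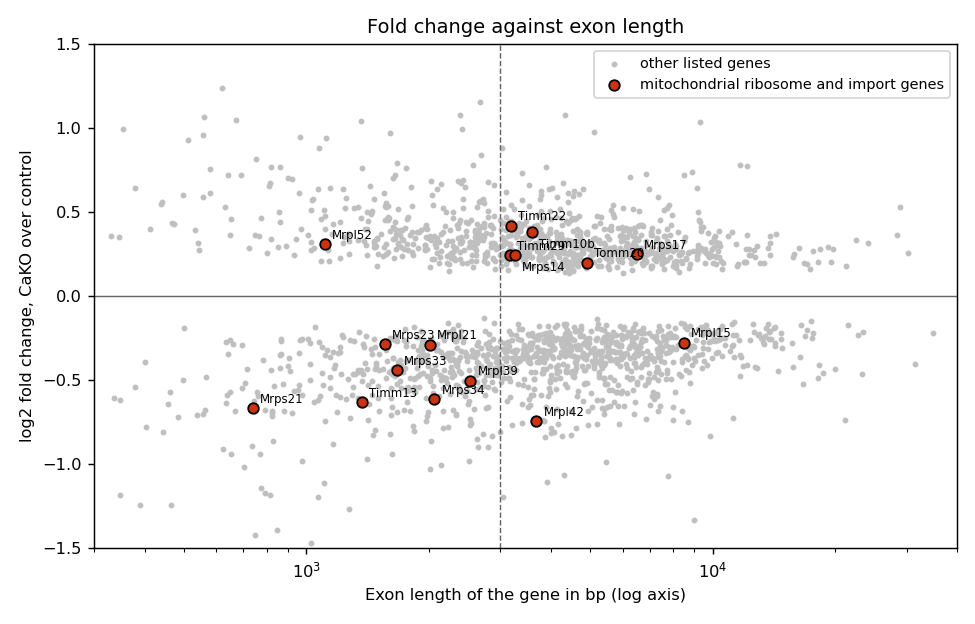
Log2 fold change, CaKO over control, per the authors' deposited table against exon length in bp (log axis) for the 2047 genes of the adjustment with an unadjusted p below 0.05: the 16 members are red and named, other genes grey; the dashed line is at 3000 bp and 14 genes lie outside the plotted range. To the right of the line 6 of 8 members lie above 0, to the left 1 of 8.

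Other genes of protein import, taken from lists of known components, were mostly on the higher side where they had a value. Of 18 genes of the import motor, processing enzymes and chaperones, 3 were higher and 1 lower, and 1 rose. Pam16, a regulator of the motor, had 315, 312, 376 and 369.9 normalised counts in CaKO. It rose by a log2 fold change of 0.58 per the authors' deposited table (adjusted p = 0.013) and kept its call with each of the 4 libraries left out. Grpel1, the exchange factor of the motor's Hsp70, and the peptidase Xpnpep3 had log2 fold changes of 0.36 and 0.28 per the authors' deposited table (adjusted p = 0.157 and 0.247). That Hsp70 itself, Hspa9, stood at -0.18 per the authors' deposited table (adjusted p = 0.244).

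Of 13 genes of outer-membrane and intermembrane-space import, 4 were higher and 1 lower, and 1 rose. Chchd4, the oxidoreductase that traps cysteine-rich proteins such as the small Timm chaperones, had 526, 558, 668 and 465 normalised counts. It rose by a log2 fold change of 0.48 per the authors' deposited table (adjusted p = 0.0218), and its call ended without replicate 3, at 0.37. Vdac3 and Vdac1, channels of the outer membrane, and Samm50, which assembles such channels, had log2 fold changes of 0.30, 0.21 and 0.24 per the authors' deposited table (adjusted p = 0.0693, 0.128 and 0.177). Gfer, the oxidase that works with Chchd4, was lower at -0.38 (adjusted p = 0.274) per the authors' deposited table and is named outside the rule, after its value was seen. Counted with the Timm and Tomm genes, 11 of the 14 listed import genes were higher, of 57 annotated, beside 45.1% of all listed genes. The 14 listed are 24.6% of the 57, beside 15.8% of all genes, and 4 rose or fell (7.02%, beside 3.24%). The lists were drawn up with earlier results of these data known, and this grouping carries no test.

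Further genes of mitochondrial translation gave no call. Among 5 ribosomal proteins with other names, the small-subunit protein Aurkaip1 was higher (log2 change 0.31, adjusted p = 0.116) and the large-subunit protein Gadd45gip1 lower (-0.64, adjusted p = 0.110) per the authors' deposited table. Gadd45gip1 had 109, 126, 68.6 and 126 normalised counts, again lowest in replicate 3. Of 19 assembly factors, the helicase Ddx28 (0.39), Mterf3 (0.37) and the endonuclease Ybey (0.47) were higher and the GTPase Noa1 (-0.26) lower per the authors' deposited table, with adjusted p-values between 0.0771 and 0.242. Of 14 translation factors, Gatb, part of the enzyme that completes glutaminyl-tRNA, was listed at 0.27 (adjusted p = 0.275) per the authors' deposited table. Of 16 tRNA synthetases, Pars2 stood at 0.62 and Rars2 at -0.29 per the authors' deposited table (adjusted p = 0.112 and 0.300). None of 12 genes of mitochondrial genome maintenance and transcription had a value.

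The crista-organising MICOS complex and the regulators of mitochondrial biogenesis completed the lists. Of 9 MICOS and crista genes, 2 were higher. Minos1, a core subunit, had 1420.2, 1483, 1793 and 1320.3 normalised counts and rose by a log2 fold change of 0.37 per the authors' deposited table (adjusted p = 0.0411). That call ended without replicate 3, at 0.28, and without replicate 2, at 0.38. Chchd2 stood at 0.22 per the authors' deposited table (adjusted p = 0.0603). Of 10 regulators, Gabpa, an ETS factor, was lower, with 413, 416, 334 and 350.1 normalised counts and a log2 fold change of -0.33 per the authors' deposited table (adjusted p = 0.107).

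**Figure D5:**
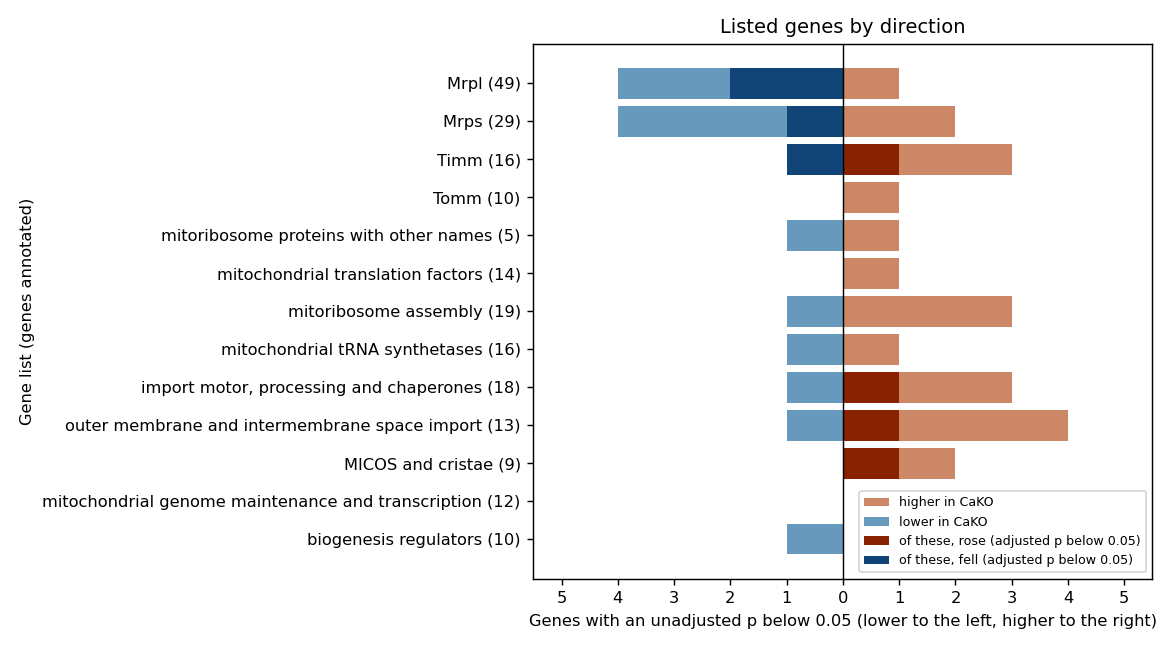
Number of genes with an unadjusted p below 0.05 that were higher (right) or lower (left) in CaKO, by list, with the number annotated in brackets and the darker part marking an adjusted p below 0.05. The Mrpl and Mrps bars reach further to the left (4 lower each), and the Timm bar and those of both import lists reach further to the right (3, 3 and 4 higher).

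The cell type markers that were listed were all lower in CaKO. All 7 mature oligodendrocyte markers were lower, 4 of them fell, and their median log2 fold change per the authors' deposited table was -0.50. Of 6 pyramidal neuron markers 3 were lower (1 fell), of 6 astrocyte markers 3 (1 fell), of 4 endothelial markers 2 (1 fell), of 4 blood markers 3 (1 fell) and of 3 precursor markers 1 (it fell). None of 6 interneuron or 4 microglial markers was listed. Over all 12938 genes of the adjustment, 8.68% were listed as lower and 1.97% fell. The summed level of the 3 listed pyramidal markers, Camk2a, Tbr1 and Nrgn, was 49066 normalised counts in CaKO replicate 3 and between 64257 and 67633 in the others. Camk2a alone gave 37911.5 of the sum in replicate 3. These markers are in the sum because they were listed, all as lower. Replicate 3 was lowest in 60% of all lower genes, so its low sum is not separate evidence about pyramidal neurons. The summed levels ranged over CaKO from 35491 to 43248 for the oligodendrocyte (highest in replicate 1), from 6970.1 to 8310.1 for the astrocyte, from 1707 to 1781 for the endothelial, from 867 to 1405 for the blood (highest in replicate 3) and from 522 to 749 for the precursor markers, and 0 listed markers were at 0. Their part in the fold changes of the ribosome and import genes was not tested. In bulk tissue, fewer cells of a type and less RNA per cell cannot be told apart.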

How the data were processed

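RNA from the mPFC of 4 CaKO and 4 control mice was poly-A selected and sequenced as 100 bp paired-end reads, per the labels' protocols. Per the submitters' processing notes, the tools were TopHat2 2.0.12 (alignment to GRCm38), HTSeq 0.6.1 (counting) and DESeq2 1.30.1. Whether counting used strand is not given in the sources used here. Library values, deposited as a table named for FPKM, are a signal: the authors divided read counts by 1 factor per library, since 100% of values in each are whole multiples of 1 step (0.9941 to 1.042, tolerance 0.01 reads). Dividing by the step gave 2832931 to 3183638 reads per CaKO library over the listed genes; total depth is unknown. The log2 fold changes, p-values and adjusted p-values are the authors' deposited ones. They run as CaKO over control: the 18 genes at 0 in every CaKO library are all negative. Benjamini-Hochberg adjustment over 12938 genes gives the adjusted values (largest relative difference 0.005); 325 genes with an adjusted p of 1 were treated as outside it and are in no count of listed genes.

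Rows were matched to GENCODE M21 genes (2266 exactly, 89 by 80% mutual overlap, 17 unmatched). Every member was named; of each context list, genes below an adjusted p of 0.05 and those with the smallest p up to 4 were named. The members and lists were chosen with earlier results of these data known. To leave out a library, a control level was worked out from mean CaKO value and deposited fold change, and the standard error implied by p was widened. A call was kept at p up to 0.00162, the largest of any called gene. How closely this stands in for a refit was not tested. Copies were sought with BLAST 2.17.0 (98% identity, 200 bases, 50% of a transcript). Alternatives were other thresholds, matching, a minimum mean of 100 and the leaving out of libraries or of genes sharing sequence. No refit was made, since only the CaKO libraries' values were used.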

Additional observations from a re-analysis of the deposited data

Results flagged for a closer look

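In 7 of the 56 genes checked, 1 CaKO library lay far from the other 3 by Dixon's test at the 95% level. Chance gives about 1 in 20 for separate, unselected genes. The 56 share the same libraries and were listed on fold changes that include them, so the 7 cannot be judged against that rate. Among the 16 members the flagged genes were Timm13 (205.8 normalised counts in replicate 3), Mrpl42 (200.8 in replicate 3) and Tomm20 (7126 in replicate 3). Among the other genes they were Vdac3 (2304 in replicate 3), Cnp (2560.0 in replicate 1), Pars2 (62.5 in replicate 4) and Rars2 (133.3 in replicate 2).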

How the results depend on the processing

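Of the member calls, 0 to 5 were kept with a CaKO library left out (rose 0 to 1, fell 0 to 4), and 9 to 15 of the 16 kept an unadjusted p below 0.05, the fewest of each without replicate 3. The median level per kb ranged from 157 to 165, against 160.1 with all libraries. No member changed direction without any 1 library. At an adjusted p below 0.10, and likewise at an unadjusted p below 0.01, 7 members passed (1 rose, 6 fell), the added ones being Mrps34 and Mrps33. Matching with overlap, which could only add members, left the number of calls at 5. Leaving out members that share sequence with another gene (Mrps33, Mrps34, Timm10b and Tomm20) could not change it, because none of these was called. All 16 members had a CaKO mean of at least 100. No context gene had a member's symbol, and table and annotation lengths were equal for the 16. No paired analysis was possible because the values of the control libraries were not used here, although the labels number mice 1 to 4 in both groups. Leaving out a library is an approximation that was not tested against a refit, so the kept and lost calls are approximate, and genes outside the listed ones could not enter.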
